A study of Drosophila melanogaster with 6 samples.

Results

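The genes of the DNA replication machinery were compared between control wing pouch cells and regeneration blastema cells of Drosophila melanogaster. The members are the rows of the deposited gene table whose symbol equals one of 37 listed replication or nucleotide supply genes, and 35 of the 37 were found among the 14239 genes of the table. The listed DNA-ligI was present only under its gene number CG5602 and is given separately, and lat was not analysed here. Both groups had 3 replicates of sorted GFP-labeled cells. The mock-ablated control had the genotype nub-GFP/+; rn-Gal4, GAL80ts/+, and the ablated group carried UAS-rpr in addition, so that rn-Gal4 drove the cell death gene reaper in the wing primordium. All larvae were reared at 18 °C, shifted to 30 °C for 24 h and left to recover for 24 h, when the blastema had formed. Each replicate pooled many discs from several days of dissection, the ablated replicates more discs than the control ones, and the labels give no age or sex.

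DNA replication starts at origins that are bound by the origin recognition complex, which loads the MCM helicase together with the licensing factors Cdc6 and Cdt1. A kinase, Cdc45 and the GINS complex then turn the loaded helicase on, and polymerases copy both strands with the help of a sliding clamp, its loader and a protein that coats single-stranded DNA. Many of these genes are transcribed at the start of S phase under the transcription factor E2f, and in wing discs they are used as markers of proliferating cells. The blastema is a zone of proliferating cells, and the comparison asks whether its transcripts for this machinery differ in level from those of the undamaged pouch, which also proliferates.

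The values are FPKM, which correct fragment numbers for gene length and depth, so levels can be compared between genes. The table gives 1 pooled value per group, the authors' value over 3 replicates. No spread between replicates, no standard error and no test could therefore be given for any difference below, and the differences have no replicate check. A log2 ratio is the log2 of ablated over control FPKM, with no pseudocount. A gene was counted as past the fold when the groups differed by 1.5-fold or more, which is 0.58 on the log2 scale. The background is the 8402 genes whose mean FPKM reached 1 with a value above 0 in both groups, and all 35 members belong to it. In cells pooled in this way, fewer expressing cells and less RNA per cell cannot be told apart.

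The replication genes were slightly higher in the blastema as a group, and most stayed close to the control level. Of the 35 members, 29 were higher in the ablated group and 6 were lower, with a median log2 ratio of 0.18, where 47% of all measured genes were higher and the median over all genes was -0.04. With both groups scaled to the same sum of FPKM, 34 members were higher and 1 was lower, where 71.7% of all measured genes were higher and their median was 0.25. Past 1.5-fold, 2 members were higher, Orc1 and DNApol-epsilon, and none was lower. In the background 14.8% of genes were higher by 1.5-fold or more and 9.32% were lower. At a smaller fold of 1.2, 10 members were higher and 1, geminin, was lower. In the background 28.2% and 30.2% of genes passed this smaller fold. In all, 33 of 35 members had a log2 ratio between -0.5 and 0.5, against 69.8% of all measured genes, and none reached the log2 ratio of 1.3 that the study used as its threshold. Of all measured genes 4.28% were higher and 1.95% lower past that value, so a count of 0 among 35 members says little.

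**Figure D1:**
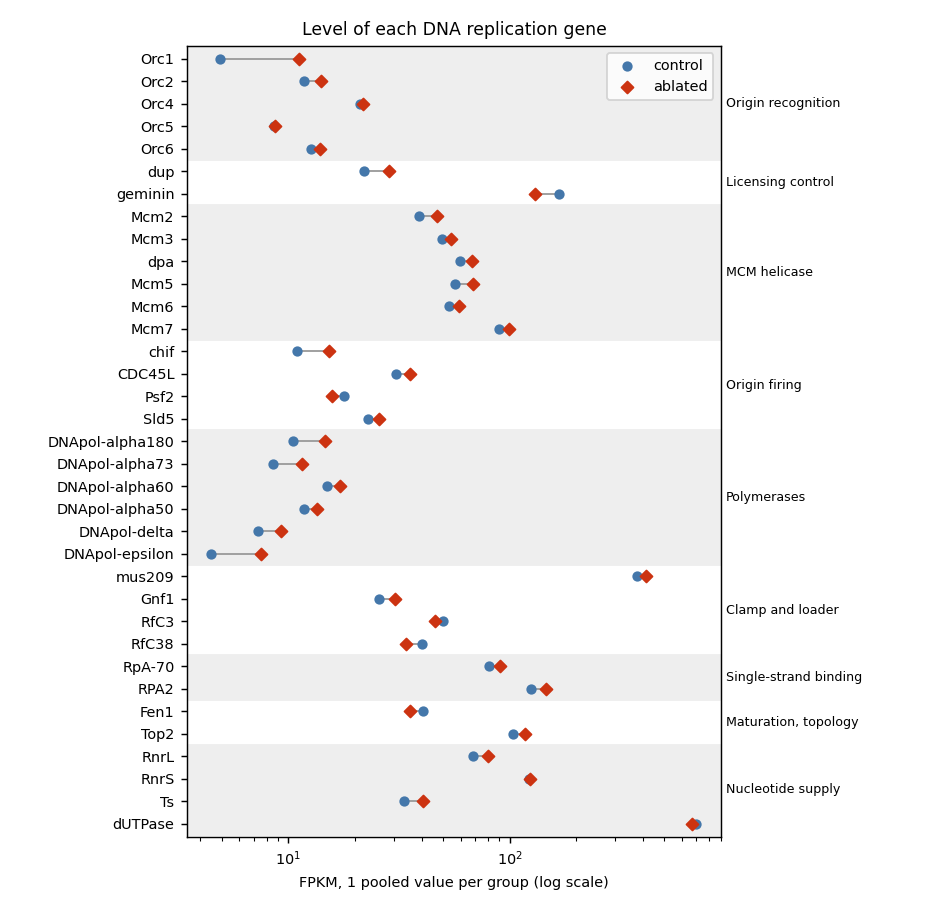
FPKM of the 35 members in the control group (circles) and the ablated group (diamonds), 1 pooled value per group, on a log axis and ordered by role. Levels run from 4.48 FPKM for DNApol-epsilon to 700 FPKM for dUTPase in the control group, and the separation of the paired symbols is widest for Orc1.

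Levels differed between members far more than between groups. In the control group, DNApol-epsilon had 4.48 FPKM and Orc1 4.91 FPKM, whereas mus209 had 377 FPKM and dUTPase 700 FPKM. The median over the members was 33.4 FPKM in control cells and 35.5 FPKM in ablated cells. The members lie on all major chromosome arms, with 10 on 2L, 9 on 2R, 4 on 3L, 9 on 3R and 3 on the X chromosome. Only a single pair of neighbouring members was closer than 1000 bases, RpA-70 and Mcm2 on 3R, with 393 bases between their loci in release 5.

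Among the subunits of the origin recognition complex, Orc1 stood apart. Orc1 encodes the largest subunit, an ATPase, and its protein level is known to rise and fall with the cell cycle in flies. It lies on chromosome 2R from 3406785 to 3413213 in release 5 of the genome, a locus that it shares with CG2144. Its FPKM was 4.91 in control cells and 11.2 in ablated cells, a 2.28-fold difference and a log2 ratio of 1.19, which is percentile 94.7 of all measured genes. The other subunits measured differed less. Orc2 had 11.7 FPKM in control cells and 14 FPKM in ablated cells, a log2 ratio of 0.26. For Orc6, a subunit also known for a role in cytokinesis, the values were 12.7 and 13.9 FPKM, a log2 ratio of 0.13. Orc4, at 21.0 and 21.8 FPKM, had a log2 ratio of 0.05, and Orc5, at 8.56 and 8.65 FPKM, one of 0.01. Thus Orc1 was the lowest of the 5 measured subunits in the control group, with a level 4.28 times below that of Orc4. In the ablated group Orc5 was the lowest of them and Orc4 exceeded Orc1 by 1.95 times.

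The value of Orc1 is uncertain to the extent that its reads and those of CG2144 were mixed, since the kit used to make the libraries kept the strand but the sources do not say whether strand was used when FPKM were estimated. CG2144 is annotated on the opposite strand in BDGP6, and 3.33% of the exon bases of Orc1 lie in its exons. CG2144 itself was slightly lower in the ablated group, with 14.2 FPKM in control cells and 12.8 FPKM in ablated cells.

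The licensing factor dup and its inhibitor geminin differed in opposite directions. The gene dup encodes the fly Cdt1 protein, which brings the helicase to origins, and it had 21.9 FPKM in control cells and 28.6 FPKM in ablated cells, a log2 ratio of 0.38. The inhibitor geminin, which binds Cdt1 and blocks a further round of licensing, had 167 FPKM in control cells and 130 FPKM in ablated cells, a log2 ratio of -0.36 and the lowest of all 35 members. The transcript ratio of geminin to dup was accordingly 7.59 in control cells and 4.54 in ablated cells. The lower value of geminin was about the size seen for genes of its level: similarly expressed genes had a median log2 ratio of -0.36 as well.

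All 6 subunits of the MCM helicase were higher in the ablated group, by similar small amounts. Mcm2 had 38.8 FPKM in control cells and 46.8 FPKM in ablated cells, a log2 ratio of 0.27, and Mcm5 had 56.4 and 68.5 FPKM, a log2 ratio of 0.28. For dpa, which encodes Mcm4, the values were 59.4 and 67.5 FPKM, a log2 ratio of 0.18. Mcm3 (49.2 and 54.6 FPKM), Mcm6 (53.4 and 59.3 FPKM) and Mcm7 (89.4 and 99.3 FPKM) had log2 ratios of 0.15 each. The 6 log2 ratios thus spanned 0.13, whereas those of the 5 measured origin recognition subunits spanned 1.18. Mcm7 was the most abundant subunit in both groups, and the most abundant exceeded the least abundant, Mcm2, by 2.30 times in control cells and 2.12 times in ablated cells.

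The factors that switch on the loaded helicase did not differ in a single direction. The gene chif encodes the fly Dbf4 protein, the activator of the Cdc7 kinase, and it had 10.9 FPKM in control cells and 15.2 FPKM in ablated cells, a log2 ratio of 0.48. CDC45L, which encodes the helicase partner Cdc45, had 30.5 and 35.5 FPKM, a log2 ratio of 0.22. The GINS subunit Sld5 was at 22.8 and 25.7 FPKM, a log2 ratio of 0.17, while the GINS subunit Psf2 was lower in the ablated group, at 17.8 and 15.7 FPKM, a log2 ratio of -0.18. The remaining GINS subunits, which are no members and were looked up after these values had been seen, were also lower, with log2 ratios of -0.15 for Psf1 and -0.16 for Psf3.

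All 6 polymerase genes were higher in the ablated group, and they included some of the least abundant members. DNApol-epsilon encodes the catalytic subunit of the polymerase that copies the leading strand. It lies on chromosome 3R from 19173913 to 19180890 (release 5) with no other gene at its locus, and it had 4.48 FPKM in control cells and 7.50 FPKM in ablated cells, a 1.67-fold difference and a log2 ratio of 0.74. Genes of similar mean FPKM were themselves higher in the ablated group, with a median log2 ratio of 0.20, so that DNApol-epsilon exceeded them by 0.54. DNApol-delta, the catalytic subunit for the lagging strand, had 7.28 and 9.21 FPKM, a log2 ratio of 0.34. It exceeded genes of similar mean FPKM by 0.22, and genes of similar mean FPKM and transcript length by 0.07.

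Within the polymerase alpha and primase complex, which makes the first primer, all 4 subunits were higher in the ablated group, by unequal amounts. DNApol-alpha180, the catalytic subunit, had 10.5 FPKM in control cells and 14.6 FPKM in ablated cells, a log2 ratio of 0.48, and DNApol-alpha73, its partner subunit, had 8.48 and 11.5 FPKM, a log2 ratio of 0.44. The primase subunits had log2 ratios of 0.19 for DNApol-alpha60 (15.0 and 17.1 FPKM) and 0.20 for DNApol-alpha50 (11.7 and 13.5 FPKM). This order did not hold relative to genes of similar mean FPKM and transcript length, where the values were 0.27 for DNApol-alpha180, 0.43 for DNApol-alpha73, 0.30 for DNApol-alpha60 and 0.46 for DNApol-alpha50. In the FPKM as reported, the excess of DNApol-alpha60 over DNApol-alpha180 was 1.43-fold in control cells and 1.17-fold in ablated cells.

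The sliding clamp PCNA is encoded by mus209, and it was among the most abundant transcripts of the machinery. Its FPKM was 377 in control cells and 414 in ablated cells, a log2 ratio of 0.14. The large subunit of the clamp loader, Gnf1, had 25.6 and 30.2 FPKM, a log2 ratio of 0.24. Of the smaller loader subunits, RfC3 had 49.9 and 46.1 FPKM, a log2 ratio of -0.11, and RfC38 had 40.3 and 34.2 FPKM, a log2 ratio of -0.24. RfC4, a further small subunit that is no member and was looked up after these values had been seen, had 103 and 106 FPKM, a log2 ratio of 0.04. RfC38 shares its locus with Csl4 and Nup160, and 25.2% of its exon bases lie in exons of Nup160 on the opposite strand, so its value is uncertain.

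Both member subunits of replication protein A, which coats single-stranded DNA, were higher in the ablated group. RpA-70 had 80.7 FPKM in control cells and 90.4 FPKM in ablated cells, a log2 ratio of 0.16, and RPA2 had 125 and 146 FPKM, a log2 ratio of 0.22. Among the genes that finish the new strands and untangle them, Fen1, the nuclease that removes flaps between Okazaki fragments, was lower in the ablated group at 40.5 and 35.5 FPKM, a log2 ratio of -0.19. Top2, the topoisomerase that separates intertwined chromosomes, was higher at 104 and 117 FPKM, a log2 ratio of 0.17. The ligase gene listed as CG5602, which RefSeq names DNAlig1, had 16.7 and 19.8 FPKM, a log2 ratio of 0.25.

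Of the genes that supply deoxynucleotides, the most abundant differed little between the groups. The enzyme dUTPase, which removes dUTP and so keeps uracil out of DNA, had 700 FPKM in control cells and 671 FPKM in ablated cells, a log2 ratio of -0.06. Ts, the thymidylate synthase, had 33.4 and 40.8 FPKM, a log2 ratio of 0.29. Its locus also holds Rbp9, in whose exons 10.5% of the exon bases of Ts lie. The large subunit of ribonucleotide reductase, RnrL, had 68.3 and 79.5 FPKM, a log2 ratio of 0.22, whereas the small subunit, RnrS, had 122 and 123 FPKM, a log2 ratio of 0.01. The transcript ratio of RnrS to RnrL was 1.79 in control cells and 1.55 in ablated cells.

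**Figure D2:**
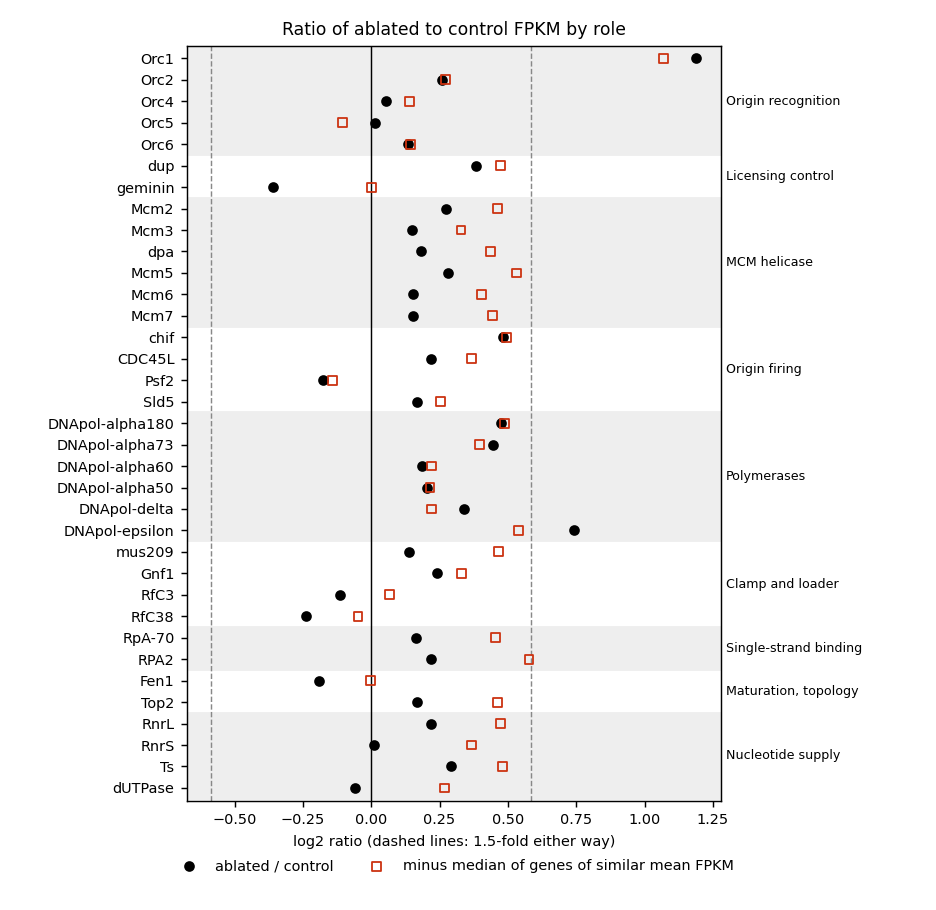
Log2 ratio of ablated to control FPKM for each member (filled circles) and the same value less the median of similarly expressed genes (open squares), with dashed lines at 1.5-fold either way. The 6 MCM subunits sit close together between 0.15 and 0.28, Orc1 lies far to the right at 1.19, and subtraction shifts the abundant members to the right.

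The members were also set against genes of similar expression, because the ratio depended on level across the whole table. The 8402 measured genes were divided into 20 bins of mean FPKM with 420 or 421 genes each. The median log2 ratio of the bins that hold a member ranged from 0.20 for the least abundant members to -0.36 for abundant ones. Of the genes in those bins, weighted by the number of members in each, 35.4% were higher in the ablated group, 6.78% were higher by 1.5-fold or more and 10.6% were lower by 1.5-fold or more. Of the members 82.9% were higher. Relative to the median of its own bin, a member stood 0.37 higher at the median, and 30 of 35 members lay above their bin. The largest values on this scale were 1.07 for Orc1, 0.58 for RPA2, 0.54 for DNApol-epsilon and 0.53 for Mcm5. Below their bin were Psf2 at -0.14, Orc5 at -0.10 and RfC38 at -0.05, and Fen1 and geminin were at their bin's median to 2 decimals. The members made up 0.231% of all FPKM in control cells and 0.294% in ablated cells. The sum of FPKM over all genes was 1081834 in control cells and 889990 in ablated cells, so scaling both to the same sum moves every log2 ratio up by 0.28, and 7 members were then higher by 1.5-fold or more, beside 26.6% of the background.

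**Figure D3:**
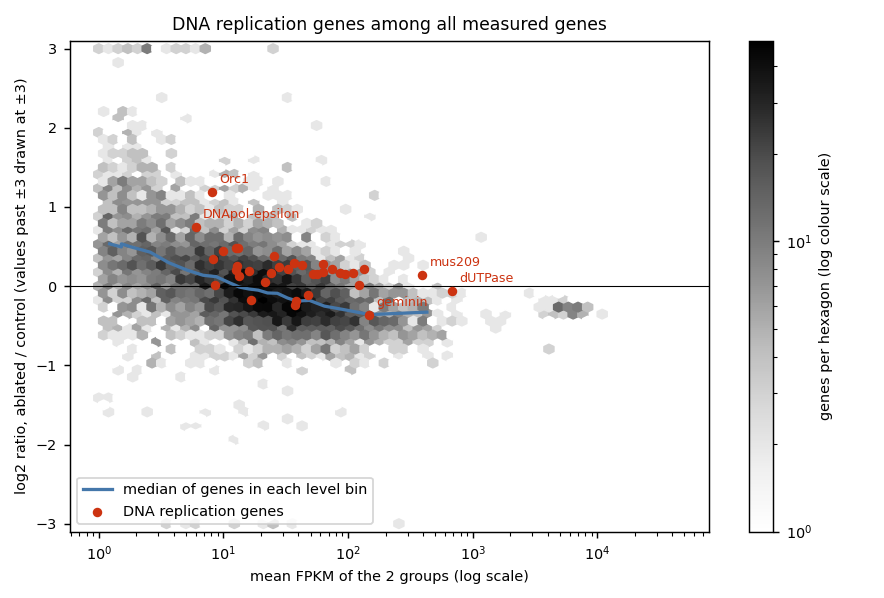
Log2 ratio against mean FPKM on a log axis for all measured genes (grey hexagons, darker with more genes) and the 35 members (red points), with the median of each of 20 level bins as a line. The line falls from above 0 at low FPKM to -0.36 for abundant genes, and most members lie above it.

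Among the members, the ratio was related to transcript length. A transcript length could be assigned to 34 members from the BDGP6.54 annotation, taking the longest transcript of each gene. Neither length nor the cut at 2000 bases was planned, and length was taken up after the values had been seen. All 17 members with a transcript of at least 2000 bases were higher in the ablated group, beside 61.1% of all measured genes of that length, with a median log2 ratio of 0.24. Of the 17 shorter members 11 were higher, beside 33.1% of all shorter genes, with a median of 0.05, and all 6 members that were lower in the ablated group, geminin, RfC38, Fen1, Psf2, RfC3 and dUTPase, were in this class. Across the 34 genes Spearman's rho between length and log2 ratio was 0.64, and Pearson's r with log2 length was 0.56. These points come from the same pair of group values and are not independent replicates. Over all 8250 measured genes with a length rho was 0.33, with median log2 ratios of 0.10 for genes of at least 2000 bases and -0.22 for shorter genes. Relative to genes of similar mean FPKM and similar length, 32 of 34 members were above the median of their class, by 0.30 at the median. On that scale shorter members stood 0.35 above their class and longer members 0.27. The part of transcript length in the values of single members was not tested.

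**Figure D4:**
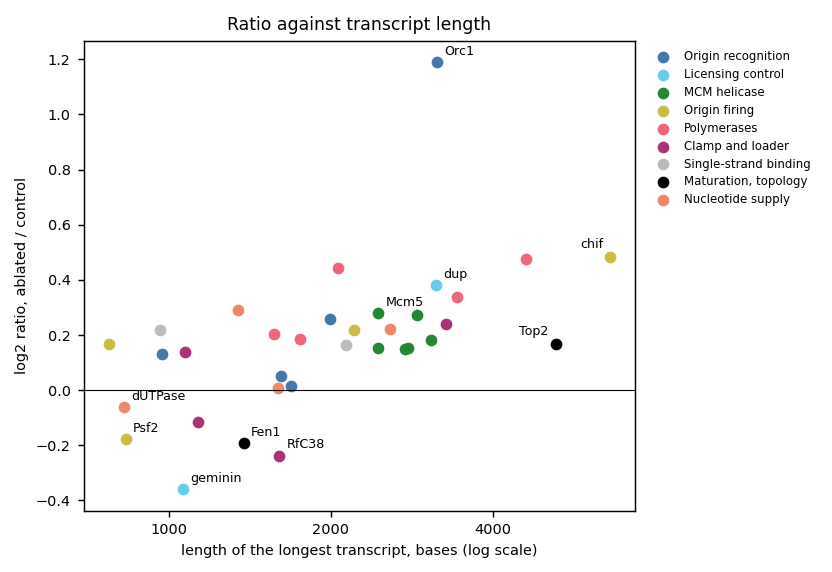
Log2 ratio of 34 members against the length of the longest annotated transcript on a log axis, coloured by role. All members of at least 2000 bases lie above 0, and the 6 members below 0 are shorter than 2000 bases.

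Other genes of the replication fork and of origins, from a list that does not overlap the members, were also mostly higher in the ablated group, 18 of 25 measured genes, with a median log2 ratio of 0.19. The lower and upper quartiles of their log2 ratios were -0.05 and 0.52, and those of the members 0.09 and 0.28. Past 1.5-fold, 6 were higher and none was lower, beside 14.8% and 9.32% of all measured genes. The largest difference was that of l(1)G0148, which encodes the Cdc7 kinase that chif activates, with 5.91 FPKM in control cells and 13.6 FPKM in ablated cells, a 2.30-fold difference. CG2990, named Dna2 by RefSeq and encoding a nuclease and helicase of flap processing, was at 1.07 and 2.03 FPKM, a log2 ratio of 0.92. The others were Caf1-180 (named, like the polymerase alpha subunits, for its mass in kilodaltons), a subunit of the factor that assembles nucleosomes behind the fork, at 0.78 (10.7 and 18.5 FPKM), the helicase gene RecQ4 at 0.68 (4.86 and 7.81 FPKM), timeout at 0.63 (11.0 and 17.1 FPKM) and l(2)dtl, whose product targets Cdt1 for destruction in S phase, at 0.60 (7.06 and 10.7 FPKM). Relative to genes of similar mean FPKM, l(1)G0148 (1.08), Caf1-180 (0.79) and timeout (0.64) stayed past the fold. On that scale RecQ4 (0.55), l(2)dtl (0.48) and CG2990 (0.43) did not. The list median was then 0.25, with 18 of 25 genes above their bin. The loading factor Cdc6, the partner of dup in licensing, was at 4.55 and 5.74 FPKM, a log2 ratio of 0.33.

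Regulators of S phase entry, listed together with stg, a regulator of entry into mitosis, differed in both directions. Of 13 genes 6 were higher in the ablated group and the median log2 ratio was -0.04. Past 1.5-fold, 3 were higher, beside 14.8% of all measured genes. The largest log2 ratio was that of stg, the Cdc25 phosphatase that drives entry into mitosis, at 1.34 (38.9 and 98.7 FPKM). CycE, the cyclin that drives S phase entry, was at 0.70 (10.2 and 16.6 FPKM). The gene dap, which encodes an inhibitor of Cyclin E and its kinase, was at 0.64 (21.2 and 33.2 FPKM). Past the same fold, 2 were lower, Cdk4 at -0.61 and the repressor E2f2 at -0.59, beside 9.32% of all measured genes. The activator E2f, just inside the fold, had 27.5 FPKM in control cells and 40.9 FPKM in ablated cells, a log2 ratio of 0.57. Relative to genes of similar mean FPKM, Cdk4 (-0.36) and E2f2 (-0.40) were inside the fold. On that scale stg (1.59), dap (0.73), E2f (0.73) and CycE (0.71) were past it. The list median was then 0.03, with 8 of 13 genes above their bin. With similar length as well it was -0.18, with 5 of 12 above.

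For genes of purine and pyrimidine synthesis outside the members, the direction depended on the scale. Of 16 measured genes 6 were higher in the ablated group, beside 47% of all measured genes, with a median log2 ratio of -0.07. Relative to genes of similar mean FPKM the median was 0.18 and 11 of 16 were above their bin, and with similar length as well it was -0.01. Only awd, a nucleoside diphosphate kinase, was past 1.5-fold, with 5302 FPKM in control cells and 3129 FPKM in ablated cells, a log2 ratio of -0.76. Of all measured genes 9.32% were lower and 14.8% higher past that fold. Relative to genes of similar mean FPKM awd was at -0.43, inside the fold. Genes of mitosis, the other part of the cell cycle, had a median log2 ratio of 0.07. Of 32 measured genes 17 were higher, beside 47% of all measured genes. None was past 1.5-fold in either direction, beside 14.8% of all measured genes higher and 9.32% lower. Relative to genes of similar mean FPKM the mitosis genes stood 0.22 higher at the median and the replication genes 0.37. With similar length as well, the mitosis genes stood 0.10 higher and the replication genes 0.30. The difference between the lists was not tested.

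**Figure D5:**
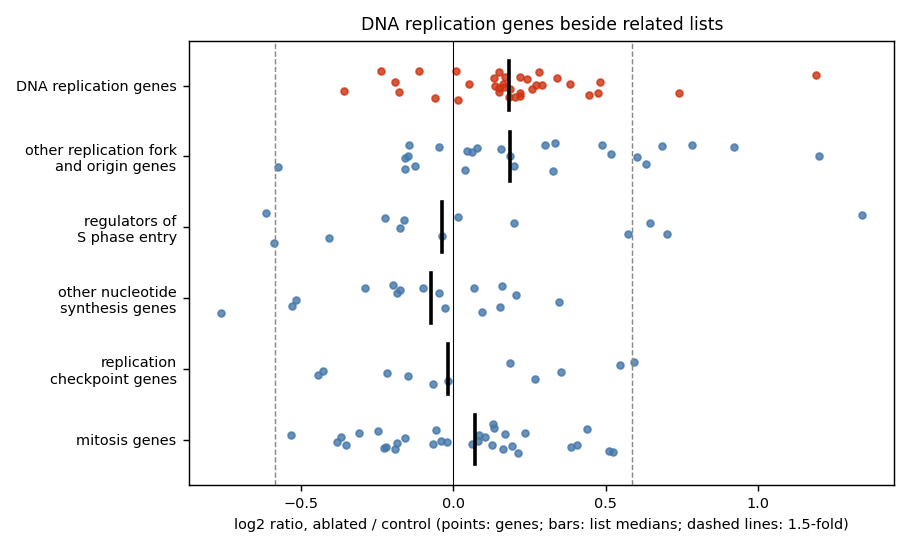
Log2 ratio of each measured gene (points) in the replication list and 5 related lists, with the list median as a bar and dashed lines at 1.5-fold. The medians are 0.18 for the replication genes and 0.19 for other fork and origin genes, and between -0.07 and 0.07 for the other 4 lists.

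The sorted cells expressed wing pouch markers in both groups, at different levels. Of 5 pouch markers 4 were lower in the ablated group by more than 1.5-fold, and the list summed to 301 and 217 FPKM in control and ablated cells. Among them was nub, whose locus drives the GFP, with 89.9 FPKM in control cells and 51.8 FPKM in ablated cells. Relative to genes of similar mean FPKM, nub (-0.54) and vg (-0.51) were inside the fold, and rn (-0.63) and Dll (-1.14) stayed past it. In the FPKM as reported, 9.32% of all measured genes were lower and 14.8% higher by 1.5-fold or more. Of 5 notum markers 4 were higher past that fold, and their summed level was 44.1 FPKM in control cells and 61.2 FPKM in ablated cells. Of 6 myoblast markers 5 were higher, with twi at 0.25 and 4.62 FPKM and htl at 0.06 and 1.38 FPKM. Him was at 0.94 and 12.6 FPKM and Mef2 at 4.41 and 12.7 FPKM. The list summed to 46.2 and 61.7 FPKM, of which how, the only lower marker, gave 40.5 and 29.6 FPKM. Hemocyte markers summed to 26.3 and 23.1 FPKM, of which crq, the only lower marker, gave 25.1 and 20 FPKM. The other listed hemocyte markers were higher in the ablated group, at low FPKM. Among them, srp was at 1.07 and 1.48 FPKM, He at 0.07 and 1.10 FPKM, Pxn at 0.03 and 0.21 FPKM and eater at 0.06 and 0.13 FPKM. Hml was at 0.01 and 0.06 FPKM, and nimC1 was listed at 0 in control and at 0.13 FPKM in ablated cells. The peripodial markers Ubx and odd summed to 2.74 and 5.83 FPKM. Of 4 tracheal markers 1, btl, was higher and 1, trh, was lower past 1.5-fold, with sums of 624 and 616 FPKM. Their part in the levels of the replication genes was not tested.

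Overlapping genes limit some of the values. Of the 35 members 12 lie in a locus that holds other genes too, Mcm3, Orc1, Orc5, Orc6, dup, CDC45L, DNApol-alpha50, DNApol-delta, RfC38, Ts, Fen1 and chif. Their median log2 ratio was 0.21, and that of the 23 members with a locus of their own was 0.17. For chif, 19.5% of the exon bases lie in exons of CG42231 on the same strand, which had 19.5 FPKM in control cells and 17.9 FPKM in ablated cells. Apart from chif, RfC38 and Ts, at most 5.81% of the exon bases of a member were shared with any single partner.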

How the data were processed

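RNA-seq libraries of sorted cells were analysed as 2 groups of 3 samples, control and ablated, from the sample titles. The authors trimmed the reads, aligned them with TopHat2 (0.6 in the submitters' notes) to release 5 of the fly genome, estimated FPKM with Cufflinks (0.0.7) with correction for bias and multiply mapped reads, and ran Cuffdiff with geometric normalization. The deposited FPKM are 1 value per gene and group. The columns of the authors' own comparison (fold change, test statistic, p-value, q-value and calls) were not used. No counts were used, so the depth per gene and any interval are unknown.

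Log2 ratios were computed without a pseudocount, for genes whose mean FPKM reached 1. A further 35 genes past that mean were left out because they are listed at 0 in 1 group. List symbols were matched exactly for the members, and for other lists also through RefSeq synonyms (Release 6) that point to 1 gene. Similar level meant 20 equal bins of mean FPKM, and similar length 3 bins within each. Every member is named. Of other lists, genes past 1.5-fold are named, up to 6 a list, and any other gene was chosen after its values were seen. The members and lists were chosen with earlier results of these data known. Loci are those of release 5, counted from 1, and exons those of BDGP6.54, whose coordinates were not mixed with them. The level correction was tested on simulated data. The planned promoter and protein motif searches were not run. Python 3.11.15, numpy 2.4.6, pandas 2.3.3 and matplotlib 3.10.9 were used.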

Additional observations from a re-analysis of the deposited data

How the results depend on the processing

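The median log2 ratio of the members, 0.18, was positive under every alternative tried. It was 0.47 with both groups scaled to the same sum of FPKM, 0.37 relative to genes of similar mean FPKM and, in an alternative chosen after seeing the data, 0.30 relative to genes of similar mean FPKM and transcript length. The number of members higher by 1.5-fold or more, 2 of 35, stood beside 14.8% of all measured genes. It became 7 with equal sums (26.6% of all genes) and 1 relative to genes of similar mean FPKM (11.6%). Relative to genes of similar mean FPKM and length it was 3 of 34, Orc1, RPA2 and Ts (10.1%). Without genes that share a locus, which leaves out Orc1, it was 1 of 23 (15.9%). Among all 35 members it was 10 at a fold of 1.2 (28.2%), 1 at a fold of 2 (7.21%) and 0 at a log2 ratio of 1.3 (4.28%). The number lower was 0 except at a fold of 1.2, where it was 1. Of all genes, 9.32% were lower past 1.5-fold and 30.2% past 1.2-fold. Pseudocounts of 0.1 and 1 FPKM, a mean FPKM of at least 5, no filter, centring on the median of all genes and adding CG5602 (chosen after seeing the data) moved the median by less than 0.1 and left both counts as they were. Under the 5 scalings, 28 of the 35 members were above 0 in each (DNApol-epsilon in the 4 that need no transcript length), and geminin, RfC38, RfC3, Psf2, Fen1, dUTPase and Orc5 were not. No paired analysis was possible because the values are pooled over the replicates of each group, and no replicate could be left out for the same reason. The precision of low values such as those of DNApol-epsilon and Orc1 cannot be given without counts.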

Other observations

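Genes of the replication checkpoint, which stops the cell cycle when forks stall, had no common direction. Of 11 measured genes 5 were higher in the ablated group, with a median log2 ratio of -0.02. Only rad50 was past 1.5-fold, with 8.10 FPKM in the control group and 12.2 FPKM in the ablated group, a log2 ratio of 0.59. Of all measured genes 14.8% were higher past that fold. The kinase genes were spread on both sides of 0: mei-41, the fly ATR, had a log2 ratio of 0.27 at 2.31 and 2.78 FPKM, tefu, the fly ATM, one of 0.35 at 8.97 and 11.5 FPKM, lok, the fly Chk2, one of 0.19 at 25.7 and 29.2 FPKM, and grp, the fly Chk1, one of -0.44 at 202 and 148 FPKM. Relative to genes of similar mean FPKM the list median was -0.08, and 4 of 11 genes were above their bin. On that scale rad50 was at 0.54, inside the fold. The kinase genes were then at 0.31 for tefu, 0.28 for lok, -0.08 for grp and -0.16 for mei-41. Except for rad50 these genes were named after their values were seen.

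The direction of some chromatin assembly genes depended on the scale. Caf1-180 and Caf1-105 had log2 ratios of 0.78 and 0.49, whereas Caf1, a subunit that other chromatin complexes also use, had 212 FPKM in the control group and 189 FPKM in the ablated group, a log2 ratio of -0.16. The histone chaperone gene asf1 was at 97.3 and 88.0 FPKM, a log2 ratio of -0.15. Relative to genes of similar mean FPKM all 4 were above 0, with 0.79 for Caf1-180, 0.50 for Caf1-105, 0.20 for Caf1 and 0.15 for asf1.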
